A study of Mus musculus with 4 samples.

Results

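C1q-high macrophages were cells that carried a macrophage signature and an unusually large amount of transcript of the 3 complement C1q genes, C1qa, C1qb and C1qc. They were chosen by measured values. A cell was retained with at least 2000 unique molecular identifiers (UMIs, each counting 1 captured transcript), at least 1000 detected genes and less than 25% of its UMIs from the 13 mitochondrially encoded protein genes. A retained cell was called a macrophage when at least 3 of 10 genes (Csf1r, Mrc1, F13a1, Adgre1, Fcgr1, Cx3cr1, Aif1, C1qa, C1qb and C1qc) were detected and their summed UMIs reached 8 per 10000 UMIs of the cell. It was C1q-high when the 3 C1q genes together reached 20 per 10000. By this rule 2292 of 44168 retained cells were C1q-high macrophages, 4850 were other macrophages below the C1q threshold, and 37026 were non-macrophage cells. The levels of the 10 genes are therefore given as description. They were left out of the tests that involved both macrophage classes. In the test between fractions they stayed among the genes tested and enter its counts of called genes.

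The cells came from the aorta-gonad-mesonephros region (AGM) of C57BL/6J mouse embryos at embryonic day 11.5, the region and stage at which the first haematopoietic stem cells arise. They had been sorted for the surface protein CD31, encoded by Pecam1, and then into a low (MMPlow) and a high (MMPhigh) fraction by TMRM, a fluorescent dye taken up in proportion to mitochondrial membrane potential. The question set by the design was how transcription differs with mitochondrial activity. Each fraction was profiled as 2 single-cell 3' libraries, and the labels do not say whether these came from separate embryos or litters, so p-values measure only the spread between these libraries. The labels give a target of at most 10000 cells per lane, and after filtering 16700, 19579, 4403 and 3486 cells were retained in MMPlow 1, MMPlow 2, MMPhigh 1 and MMPhigh 2, so both MMPlow libraries held more cells than 1 lane was meant to. How many lanes made up a library is not given in the sources used here.

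C1q is the recognition part of the first component of the classical complement pathway. It binds immune complexes, dying cells and debris, and tissue macrophages are its main source. Macrophages of the midgestation embryo clear dying cells and the nuclei that red cells expel, and they seed the resident populations of the brain (microglia), of the vessel walls (perivascular macrophages) and of the liver (Kupffer cells).

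The A, B and C chains are encoded by neighbouring genes on chromosome 4, and the sequences before the starts of 2 of the 3 genes are shown because these genes define the cells. They are the 250 bases before the start site in RefSeq's table, read 5′ to 3′ on the minus strand of GRCm38.p6, at chr4:136886201-136886450 for C1qb and chr4:136892915-136893164 for C1qc. Capitals mark GAGGAA or its complement TTCCTC, the core of the sites bound by PU.1 (Spi1), a transcription factor of macrophages.
C1qb: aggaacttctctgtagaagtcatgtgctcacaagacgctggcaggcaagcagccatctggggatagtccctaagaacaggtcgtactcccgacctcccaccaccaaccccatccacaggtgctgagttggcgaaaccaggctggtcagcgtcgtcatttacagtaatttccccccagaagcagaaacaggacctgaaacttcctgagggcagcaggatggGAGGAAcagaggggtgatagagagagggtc
C1qc: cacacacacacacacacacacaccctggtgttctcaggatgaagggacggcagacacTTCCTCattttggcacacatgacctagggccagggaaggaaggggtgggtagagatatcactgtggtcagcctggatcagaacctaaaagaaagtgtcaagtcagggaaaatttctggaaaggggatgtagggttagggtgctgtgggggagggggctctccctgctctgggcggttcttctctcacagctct
The match lay 30 bases before the start in C1qb and 193 bases before it in C1qc. Searched on both strands, these letters occurred in 7639 of the 32851 promoters in the table (23.3%), so a match is common and is given as a description. The transcript of Spi1 itself is described with the macrophage genes.

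The libraries differed in depth. C1q-high macrophages numbered 292 in MMPlow 1, 465 in MMPlow 2, 766 in MMPhigh 1 and 769 in MMPhigh 2, with median UMIs per cell of 3868.5, 5404, 4178.5 and 22539. Their summed UMIs were 1302480, 2664435, 7409028 and 19273552. MMPhigh 2 therefore held most of the transcripts counted in these cells. No barcode sequence was shared between the C1q-high macrophages of any 2 libraries. Among all retained cells 7 to 89 barcode sequences were shared per pair of libraries.

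The label was checked on genes outside the rule. Trem2, the lipid-sensing receptor of tissue macrophages, and Apoe, which carries lipids between cells, were given as markers of these cells together with Tyrobp, the adaptor through which Trem2 signals. With every cell thinned to 2000 UMIs by a random draw, Trem2 was detected in 37.3, 39.4, 47.8 and 51.1% of C1q-high macrophages (libraries always in the order MMPlow 1, MMPlow 2, MMPhigh 1, MMPhigh 2). In cells past a neural marker cut, which should lack it, Trem2 was found in 1.40, 0.542, 2.1 and 0.170%, also after thinning. Before thinning the median depths of these neural cells were 3921, 4516, 3822 and 19982 UMIs. Tyrobp was found in 77.7, 83.9, 90.6 and 93.4% of C1q-high macrophages against 13.8, 13.9, 13.1 and 2.29% of neural cells. Apoe was found in 99.0, 99.1, 97.5 and 97.1% against 41.3, 28.7, 37.5 and 9.94%. All 3 markers were well above this background in every library.

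C1q-high macrophages made up a far larger share of the MMPhigh than of the MMPlow fraction. They were 1.75% (95% exact binomial interval 1.56 to 1.96%) and 2.37% (2.17 to 2.60%) of retained cells in the MMPlow libraries and 17.4% (16.3 to 18.5%) and 22.1% (20.7 to 23.5%) in the MMPhigh libraries. The groups did not overlap, with means of 2.06% ± 0.443 (SD, n = 2) and 19.7% ± 3.30 (SD, n = 2). Macrophages of any kind were 11.9, 12.4, 37.2 and 31.1% of retained cells. Within the macrophages, C1q-high cells were 14.7% (13.1 to 16.3%), 19.2% (17.6 to 20.8%), 46.7% (44.3 to 49.2%) and 70.9% (68.1 to 73.6%). The MMPlow mean was 16.9% ± 3.17 (SD, n = 2). The MMPhigh mean was 58.8% ± 17.1 (SD, n = 2), or 41.9 percentage points more. Each difference gave p = 0.333 in an exact two-sided permutation test, the smallest p that 2 against 2 libraries allow. Intervals cover counting error only.

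**Figure D1:**
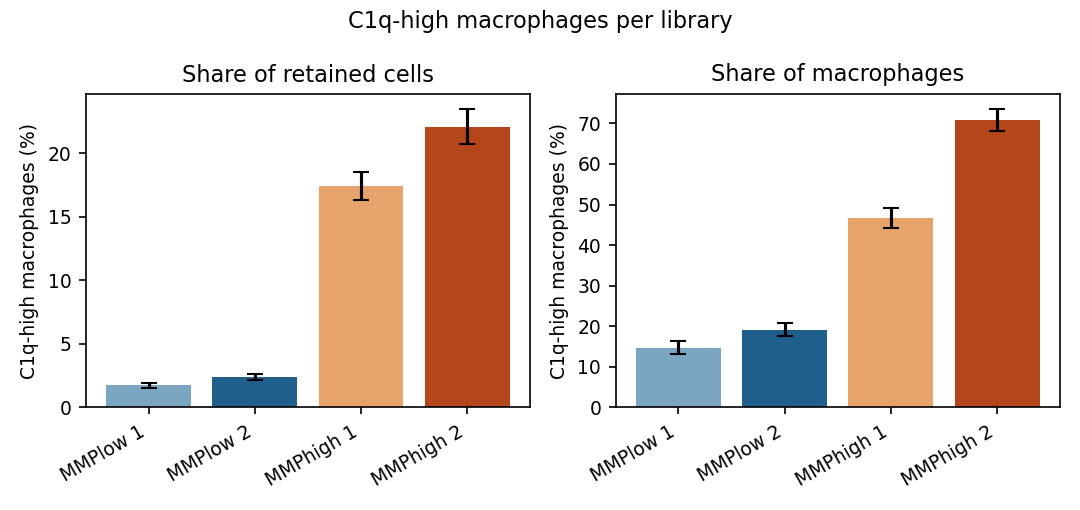
C1q-high macrophages as a percentage of retained cells (left) and of macrophages (right) in each of the 4 libraries. Bars are the percentage of 1 library, error bars are 95% exact binomial intervals, and both axes start at 0. Both MMPhigh libraries lie above both MMPlow libraries in each panel.

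At equal depth the libraries kept this order. After thinning each cell to 2000 UMIs and applying the rule again, the share within macrophages was 21.9, 28.7, 60.9 and 76.4%. Of the C1q-high macrophages 91.1 to 93.4% still passed the threshold. The tests in thinned cells given below also used cells chosen again, so the cells changed as well as the depth. The median C1q level of the chosen cells was 32.5, 35.0, 36.8 and 50.2 UMIs per 10000, highest in MMPhigh 2. The cells had been gated on CD31 and TMRM, and what the gate and the fraction each contribute to these shares cannot be told apart. Pecam1, the gene for CD31, was at 289 and 275 CPM (counts scaled to a library sum of 1000000 UMIs) in the non-macrophage cells of the MMPlow libraries but at 18.9 and 15.2 CPM in those of the MMPhigh libraries. In C1q-high macrophages it was at 107, 98.7, 46.6 and 45.7 CPM.

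Endothelial and neural transcripts were also counted in some of these cells. A C1q-high macrophage also passed an endothelial marker cut (at least 3 of 8 genes and 8 UMIs per 10000, as for macrophages) in 21.6 and 15.7% of cells in the MMPlow libraries and in 0.131 and 0% in the MMPhigh libraries, where 0 of 769 cells allows a share of up to 0.390% (taking 3 cells of the total as the limit, for counting error only). Among non-macrophage cells the endothelial cut took 63.1, 64.1, 1.59 and 0.833%. A neural cut took 0.685 and 0.215% of C1q-high macrophages in the MMPlow libraries and 22.1 and 3.25% in the MMPhigh libraries, against 2.92, 3.23, 48.2 and 49.0% of non-macrophage cells. No C1q-high macrophage passed an erythroid cut, and 0 of 2292 cells allows a share of up to 0.131% by the same limit. The highest 6% of Scrublet doublet scores in each library held 7.88, 7.10, 4.31 and 4.68% of them. The part of free RNA and of doublets in these values was not tested.

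C1q-high macrophages were compared with the other macrophages of the same libraries by summing the UMIs of each class in each library. Cells past no marker cut of another class were 226 of 292, 387 of 465, 594 of 766 and 739 of 769 C1q-high macrophages. They were 984 of 1698, 1180 of 1963, 497 of 873 and 217 of 316 other macrophages. Other macrophages therefore passed such a cut more often in every library. Of 13596 genes tested outside the rule, 1911 (14.1%) were higher and 2422 (17.8%) lower in C1q-high macrophages by edgeR's quasi-likelihood test with library as a block, at a Benjamini-Hochberg adjusted p below 0.05. The median log2 fold change over all tested genes was -0.05. The excess of lower genes did not hold without the cells past the marker cut of another class (1340 higher, 1188 lower) or in thinned cells (890 and 883). In such sums, fewer expressing cells and less RNA per cell cannot be told apart. Genes were named by a rule that took, in each direction, the 10 called genes with the largest log2 differences among those at 50 CPM or more on average in the higher class and moving the same way in all 4 libraries, leaving out unnamed gene models. For the 2 fractions the rule asked that their libraries did not overlap.

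Trem2 stood at 225, 265, 363 and 346 CPM in C1q-high macrophages and at 66.2, 64.1, 87.8 and 95.1 CPM in other macrophages. The classes did not overlap, and the log2 difference was 2.07 (SE 0.12, edgeR adjusted p = 4.7e-06). Apoe stood at 7479, 6297, 7639 and 7134 CPM against 1962, 1638, 2006 and 1548 CPM, a log2 difference of 2.14 (SE 0.18, edgeR adjusted p = 2.5e-05). Tyrobp was higher by 1.43 on the log2 scale. Others that rose by a similar amount were Ctsb, for the lysosomal protease cathepsin B (log2 2.08), Ms4a6d, a membrane protein of myeloid cells (2.08), and Fcrls, an Fc-receptor-like gene (2.19). The genes with the highest log2 differences by the rule for named genes also held Cryba4, a lens crystallin gene (2.69), Olfml3, a secreted matrix protein (2.64), Tmem37 (2.26), Ccl24, an eosinophil-attracting chemokine (2.13), and Rnase4, a secreted ribonuclease (2.1). Olfml3 rose from 6.01, 6.50, 12.3 and 15.3 CPM in other macrophages to 31.5, 38.7, 76.7 and 81.8 CPM in C1q-high macrophages.

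By function, the lysosome and cathepsin list had 25 of 27 tested genes higher and 0 lower, with a median log2 difference of 1.22. Ctsd and Lgmn, the proteases cathepsin D and legumain, rose by 1.94 and 1.95. Of 20 macrophage genes outside the rule, 19 rose (median 1.04), which fell to 12 when cells past the marker cut of another class were left out. Of 13 complement genes other than C1q, 9 rose and 0 fell (median 0.76). Of 20 genes of haem and iron recycling, 13 rose and 2 fell (median 0.77). Among them were Hmox1, the enzyme that opens the haem ring (1.96), Slc40a1, the iron exporter ferroportin (1.68), and Trf, transferrin (2.06), while Hp, haptoglobin, fell by 2.07. The efferocytosis list, of receptors and bridging molecules for dying cells, had 11 of 20 higher and 2 lower (median 0.67). It included the receptor kinases Mertk (1.02) and Axl (1.59), the calls for which were lost when cells were thinned to 2000 UMIs.

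Most genes of 2 resident macrophage lists were higher here. Of the microglia list 13 of 15 rose and 1, the adhesion receptor Adgrg1, fell (median 1.38). Of the perivascular list 9 of 10 rose and 0 fell (median 1.56), among them Fcna, a complement-activating lectin (3.07), and Folr2, a folate receptor (2.51). The perivascular count was 5 of 7 tested when cells were thinned. Of the chemokine and cytokine list 14 of 20 rose and 1 fell (median 1.59). Fetal liver and Kupffer genes were split, with 6 of 9 higher and 3 lower, though their median was as high (1.59).

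**Figure D2:**
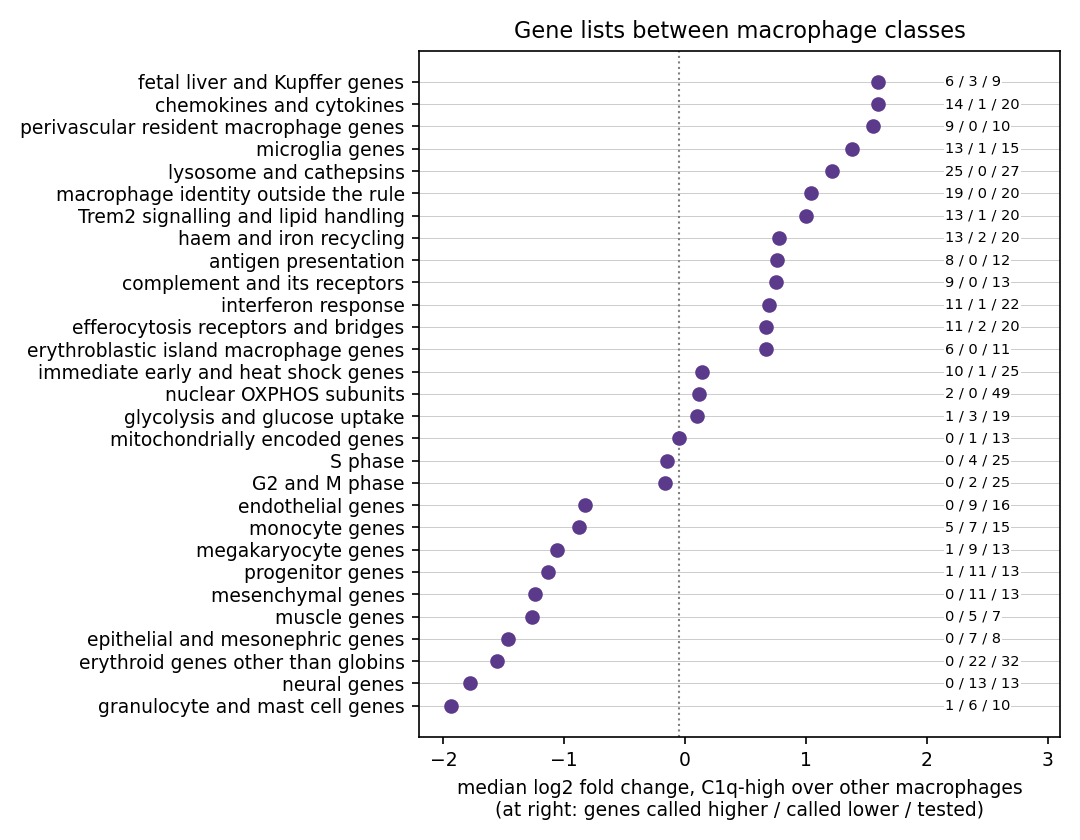
Median log2 fold change of each gene list, C1q-high over other macrophages, over the genes tested. Each point is 1 list, the numbers at the right are the genes called higher, called lower and tested, and the dotted line is the median of all tested genes (-0.05). The fetal liver and Kupffer, perivascular, microglia, chemokine and lysosome lists lie far to the right. The granulocyte and mast cell, neural and erythroid lists lie far to the left.

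Of the lists of other lineages and of less mature blood cells, the monocyte list was divided and the others had more genes lower than higher. Of the monocyte list 7 of 15 fell and 5 rose (median -0.88), with Ccr2, the receptor that recruits monocytes, lower by 1.12 on the log2 scale but not called in thinned cells. The count of 5 was 3 without MMPlow 2. Of the progenitor list 11 of 13 fell and 1 rose (median -1.13), and of the erythroid list without globins 22 of 32 fell and 0 rose (median -1.56). Without MMPhigh 2 the progenitor count was 7 and the erythroid count 12. All 13 tested neural genes fell (median -1.78), of which 4 of 13 were called once cells past the marker cut of another class were left out. Endothelial genes fell in 9 of 16 cases (median -0.83), and in 2 of 15 without those cells. The lower genes named by the rule began with Hbb-bs, an adult-type β-globin (-3.75), Nrg1, a growth factor gene (-2.49), Mpo, myeloperoxidase (-2.41), and Gria3, a glutamate receptor subunit (-2.37). The Hbb-bs call was lost without MMPhigh 2 and the Mpo call without MMPhigh 1. Gria3 stood at 36.1, 52.2, 27.7 and 33.7 CPM against 241, 271, 167 and 177 CPM in other macrophages. The remaining 6 were Sorbs2, Cadps, Thsd7a, Nefm, Ctnna2 and Tox.

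Between the fractions, C1q-high macrophages of MMPhigh differed from those of MMPlow in many genes. Of 12653 genes tested, 991 (7.83%) were higher and 1186 (9.37%) lower in MMPhigh by edgeR's quasi-likelihood test (adjusted p below 0.05, 2 against 2 libraries). These counts include genes of the rule that chose the cells, with C1qa, C1qc and Cx3cr1 among the higher and Mrc1 and F13a1 among the lower. Their calls are not read as results. The median over all tested genes was 0.01. With no expression filter 1450 were higher and 1209 lower. This comparison shares its libraries with the one between macrophage classes. The count was 617 genes when every cell was thinned to 2000 UMIs, and 1433 without MMPlow 1.

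The lower genes with the largest changes were mostly endothelial. Of the 15 tested endothelial genes all 15 were lower, with a median log2 difference of -4.94. The summed level of that list was 1127 and 917 CPM in the C1q-high macrophages of MMPlow and 106 CPM in both MMPhigh libraries, and it moved the same way in non-macrophage cells, at 3845, 3763, 164 and 127 CPM. Emcn, an endothelial sialomucin, stood at 141, 131, 0 and 0.259 CPM. In UMIs this was 531 against 5. Scaled to the summed UMIs of each fraction, which were far fewer in MMPlow, the ratio was 714 with a counting interval of 304 to 2209. Ptprb, Cldn5, Plvap, Ramp2, Lama4 and Col4a1, all expressed by endothelium, and Piezo2, a mechanically gated channel, were also among the 10 named lower genes. Col4a1, a collagen of basement membranes, was at 156, 110, 3.78 and 3.79 CPM. The remaining 2 were S100a8 and S100a9, calcium-binding proteins of granulocytes and monocytes, with 257 against 8 and 299 against 7 UMIs. Scaled in the same way, their ratios were 216 and 287.

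Among the named higher genes, neuronal ones came first. Of 13 tested neural genes 8 rose and 1 fell (median 2.23), and their summed level was 176, 138, 558 and 370 CPM in C1q-high macrophages and 746, 745, 4743 and 5531 CPM in non-macrophage cells. Tubb3, a neuronal tubulin, was at 6.14, 7.13, 69.2 and 52.1 CPM in C1q-high macrophages and at 48.5, 42.6, 558 and 746 CPM in non-macrophage cells. None of the 8 was above the non-macrophage level in both MMPhigh libraries. The count of 8 was 1 when the highest 6% of Scrublet scores were removed, 4 in thinned cells or with C1q at or above 40 per 10000, and 5 without cells past the marker cut of another class, but 12 with DESeq2, with a replicate block or without MMPhigh 2. Ctnna2, Nav2, Dcc, Ank3 and Tubb2b, all known from neurons, were named by the same rule, and each lost its call in at least 1 of the fits that removed high Scrublet scores, cells under 5000 UMIs or depth by thinning. Tubb2b also lost it without either MMPlow library. Their part, and that of the endothelial genes, in the comparison was not tested.

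Called genes were also set beside the level in non-macrophage cells, as a description. Of the 991 higher genes 677 were above it in both MMPhigh libraries, and of the 1186 lower genes 147 were above it in both MMPlow libraries. These 2 counts cannot be compared, because each gene was judged in the fraction where it was high and the non-macrophage cells differed between fractions in their endothelial and neural shares. Both counts include genes of the rule that chose the cells. The rule for named genes was then repeated within the 677 and the 147, leaving those genes out, a choice made after the values were seen.

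**Figure D3:**
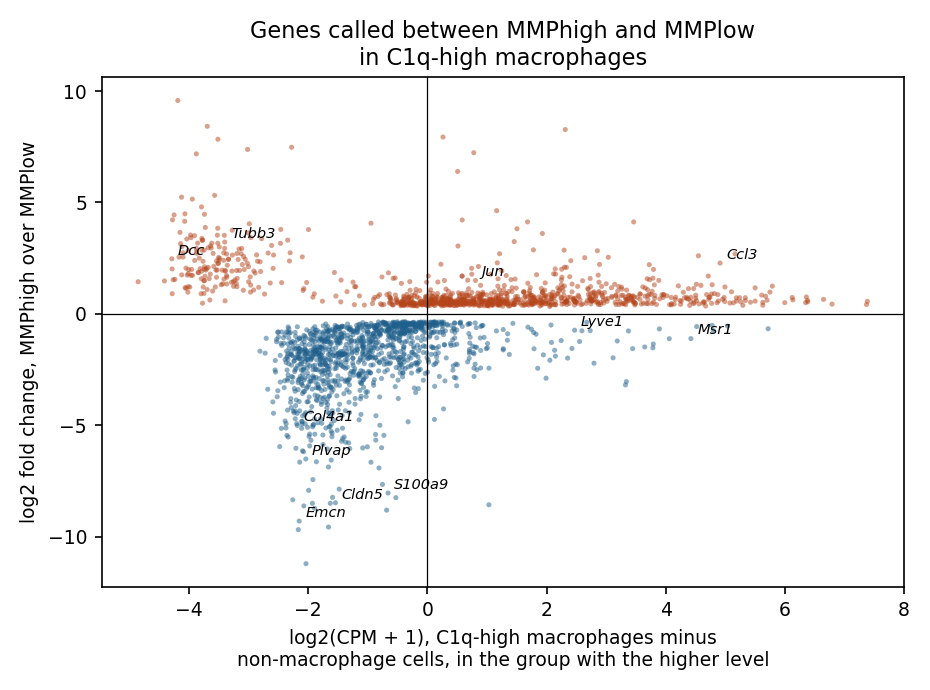
Genes called between MMPhigh and MMPlow in C1q-high macrophages. The vertical axis is the log2 fold change and the horizontal axis the difference in log2(CPM + 1) between C1q-high macrophages and non-macrophage cells in the fraction where the gene was higher; each point is 1 gene. Points right of 0 are above the level of non-macrophage cells, as Ccl3 and Jun are, while Emcn, Plvap, Tubb3 and Dcc lie left of 0.

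Among the higher genes of this selection the chemokine Ccl3, which attracts leukocytes, came first. It stood at 12.3, 13.5, 57.6 and 62.0 CPM, against about 1 CPM in non-macrophage cells (1.23, 0.963, 1.06 and 0.970). The log2 difference was 2.28 (SE 0.17, edgeR adjusted p = 3.3e-07), and the rule that named it had asked that the fractions did not overlap. Spsb1, a ubiquitin ligase adaptor, stood at 9.98, 16.5, 51.7 and 61.5 CPM (log2 2.09), Pmepa1, a target and inhibitor of TGF-β signalling, at 12.3, 21.0, 55.2 and 60.3 CPM (1.78), and Arhgap24, a regulator of Rac, at 41.5, 47.7, 114 and 137 CPM (1.56). Then came Jun (1.5), Mylip, which degrades the LDL receptor (1.33), Cd83, an activation marker (1.33), Plxdc2 (1.32), and Vav2, a guanine exchange factor (1.27).

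Among the lower genes of this selection Atg16l2, a homologue of an autophagy protein, stood at 66.0, 50.3, 19.3 and 15.6 CPM (log2 -1.64). Msr1, a scavenger receptor, stood at 72.9, 85.9, 32.3 and 37.6 CPM (-1.11), and Lbr, a lamin receptor of the nuclear envelope, at 141, 128, 71.7 and 68.7 CPM (-0.84). That none of the 3 overlapped between fractions was a condition of the rule that named them. Ahnak, Tmem165, Lyve1, Wdr76, Emilin2, Hgsnat and Tm9sf3 followed, with log2 values between -0.83 and -0.67.

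Most of the microglia list was higher in MMPhigh. Of 15 tested genes 12 were higher and 0 lower, with a median log2 difference of 1.13. The summed level was 922, 902, 1477 and 1527 CPM. Olfml3 stood at 31.5, 38.7, 76.7 and 81.8 CPM, higher by 1.23 (SE 0.14, edgeR adjusted p = 2.4e-05). The 2 fractions were well apart and the 2 libraries of a fraction close together.

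Receptors of the list were among the higher genes. P2ry12, the ADP receptor that guides microglial processes, was at 142, 154, 220 and 242 CPM (log2 0.73, SE 0.12, edgeR adjusted p = 0.00047). Its relative P2ry13 rose by 1.31, the surface protein Tmem119 by 1.25, the lectin Siglech by 1.17, and the lysophosphatidylserine receptor Gpr34 by 0.58. Csf3r, which is also on the granulocyte list, rose by 0.87 and Crybb1 by 1.13. Sall1, the transcription factor that maintains microglial identity, was called at 2.23 but stood at only 6.14, 1.13, 11.1 and 13.7 CPM, near its level in non-macrophage cells (2.69, 2.76, 10.7 and 10.2 CPM), and was not called without MMPlow 2. Sparc was not called, at 174, 159, 141 and 149 CPM. Cx3cr1, a microglia gene used by the rule, stood at 797, 772, 931 and 1162 CPM. The list kept 7 calls when cells were thinned, where P2ry12, Gpr34, Csf3r and Sall1 were not called.

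Some genes of the perivascular list were lower in MMPhigh. Of 10 tested genes 5 were lower and 0 higher, with a median of -0.41 and summed levels of 1866, 1961, 1246 and 1373 CPM. The list's sum was also lower in MMPhigh in other macrophages (1457, 1181, 678 and 836 CPM) and in non-macrophage cells (1015, 1175, 557 and 467 CPM). The endothelial list (15 of 15 lower) and the megakaryocyte list (6 of 10 lower, which also holds Pf4) moved the same way, and their part was not tested. Lyve1, the hyaluronan receptor of vessel-associated macrophages, stood at 66.0, 73.2, 33.1 and 45.4 CPM (log2 -0.73, SE 0.16, edgeR adjusted p = 0.0049). Fcna was at 22.3, 22.1, 7.29 and 11.3 CPM (-1.11), Pf4, a chemokine that platelets also carry, at 524, 804, 375 and 385 CPM (-0.73), Folr2 at 15.4, 17.6, 9.85 and 8.92 CPM (-0.76), and Ccl24 at 155, 105, 75.6 and 89.8 CPM (-0.51). These libraries did not overlap between fractions, but none of the 5 was called in thinned cells. Without MMPlow 2 the count was 2, with Lyve1, Pf4 and Folr2 among those lost, and without MMPlow 1 it was 3, with Ccl24 and Folr2 lost. Stab1, a scavenger receptor, was not called at 702, 567, 466 and 531 CPM. Mrc1, the mannose receptor, and F13a1, coagulation factor XIII, are perivascular genes that the rule used, and they stood at 1637, 1535, 887 and 990 CPM and at 878, 978, 468 and 573 CPM. Cd209f and Cd209g of this list had no UMI in any C1q-high macrophage.

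**Figure D4:**
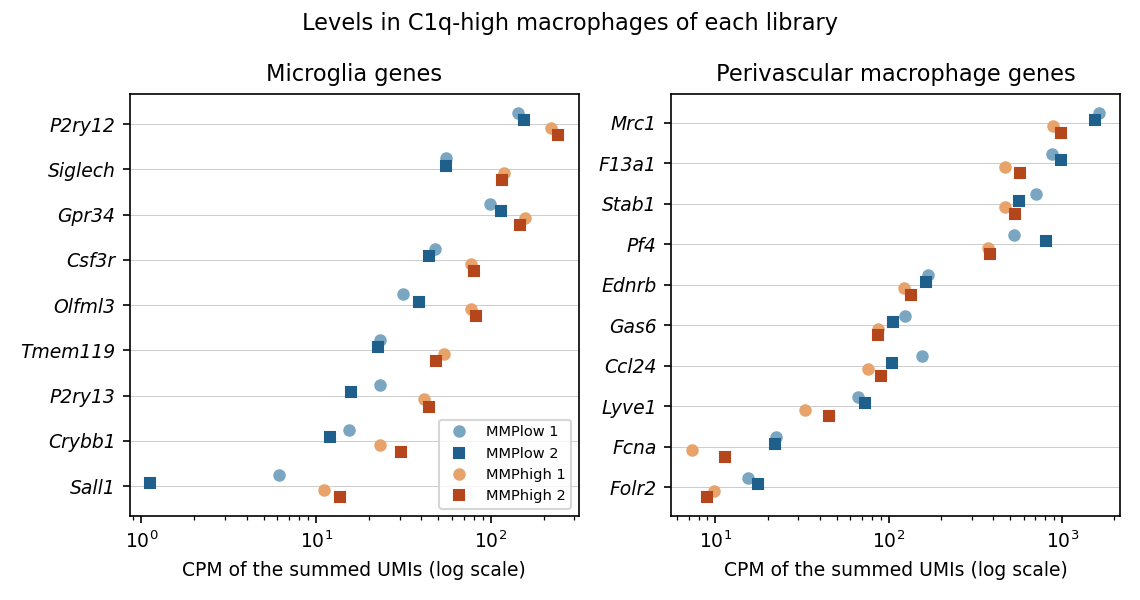
CPM of 9 microglia genes and 10 perivascular genes in the C1q-high macrophages of each library, on a logarithmic axis. Each point is 1 library, and the points of the 2 fractions are separate for Olfml3 and Lyve1 among others.

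Part of the machinery that degrades engulfed material was higher in MMPhigh. Of 27 lysosome and cathepsin genes 13 were higher, 0 lower and 14 not called (median 0.36), with summed levels of 8654, 8451, 10314 and 11022 CPM. Ctsd stood at 563, 546, 913 and 994 CPM (log2 0.88), Lgmn at 517, 522, 803 and 947 CPM (0.84), and Tfeb, the transcription factor that drives lysosome formation, at 16.1, 20.6, 31.7 and 35.6 CPM (0.92). Each was higher in both MMPhigh libraries. The count was 2 when cells were thinned and 7 without MMPlow 2.

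Of 20 genes for Trem2 signalling and lipid handling 8 were higher and 0 lower (median 0.32). Trem2 was higher by 0.61 (SE 0.12, edgeR adjusted p = 0.0029; not called in thinned cells) and Tyrobp by 0.53, the latter not called without MMPlow 1. Plin2, which coats lipid droplets, stood at 112, 135, 250 and 261 CPM (1.12, SE 0.12, edgeR adjusted p = 1.6e-05). Cd9, a tetraspanin, stood at 67.6, 74.7, 127 and 126 CPM (0.91). Apoe itself was not called (log2 0.20, edgeR adjusted p = 0.45) and its libraries overlapped between fractions. Without MMPlow 1 the count was 5.

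Iron handling was divided. Of 20 haem and iron genes 6 rose and 3 fell (median 0.16). The list's sum in C1q-high macrophages was 6968, 8239, 11040 and 10757 CPM. It was also higher in MMPhigh in other macrophages (3591, 3650, 6585 and 5677 CPM) and in non-macrophage cells (2880, 2971, 4049 and 3576 CPM). The 2 ferritin chains, which store iron, were at 2868, 3644, 4989 and 4299 CPM (Fth1, log2 0.60) and at 2523, 3076, 4480 and 4575 CPM (Ftl1, 0.78), and Hmox1 was at 98.3, 88.9, 133 and 159 CPM (0.75). Tfrc, the transferrin receptor through which iron enters, stood at 86.8, 64.2, 38.5 and 41.0 CPM (-0.79). Slc40a1 was not called, at 90.6, 91.2, 58.7 and 77.4 CPM. Without MMPlow 1, 2 genes of this list were called higher, and Fth1 and Ftl1 were not.

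Of 20 efferocytosis genes 5 rose and 4 fell (median -0.08). Mertk stood at 159, 143, 218 and 233 CPM (log2 0.68, not called in thinned cells) and Axl at 13.8, 9.76, 25 and 29.8 CPM (1.39), while the bridging protein Mfge8 stood at 27.6, 14.3, 5.53 and 6.23 CPM (-1.62, not called in thinned cells). Mfge8 was at 50.04, 47.2, 15.7 and 14.9 CPM in non-macrophage cells, and none of the 4 lower genes was above the non-macrophage level in both MMPlow libraries. The endothelial list, with 15 of 15 genes lower, moved the same way, and its part was not tested. Of 13 complement genes 1 rose, the anaphylatoxin receptor C3ar1 (0.44, not called without MMPlow 1), and 2 fell, properdin (Cfp, -0.75) and Cd93 (-2.34), which endothelium also expresses. Over all genes tested 7.83% rose and 9.37% fell. The 3 C1q genes, whose levels the rule used, stood at 967, 944, 1181 and 1220 CPM for C1qa, at 1676, 1956, 2192 and 2295 CPM for C1qb and at 887, 955, 1227 and 1332 CPM for C1qc.

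Some of the genes known to respond within minutes to stimulation or to tissue dissociation were higher in MMPhigh. Of 25 immediate early and heat shock genes 12 were higher, 0 lower and 13 not called (median 0.82). The list's sum in C1q-high macrophages was 2860, 2803, 3518 and 3568 CPM. It was also higher in MMPhigh in other macrophages (2678, 2812, 4411 and 4654 CPM) and in non-macrophage cells (2957, 3121, 4638 and 4976 CPM). Jun stood at 96.7, 81.8, 231 and 237 CPM and Atf3 at 13.1, 7.51, 42.0 and 40.4 CPM (log2 2.21). Fos, the partner of Jun in AP-1, stood at 3.84, 8.63, 43.2 and 42.8 CPM (2.70), and Klf6 at 63.7, 52.2, 126 and 118 CPM (1.19). Of 21 chemokine and cytokine genes 5 rose and 2 fell (median 0.17). Beside Ccl3 these were Ccl4, at 1.54, 8.63, 43.3 and 29.7 CPM (2.61), Il1b, at 7.68, 5.25, 13.1 and 18.8 CPM (1.5, not called without MMPlow 2), Cxcl10 (2.1), and Cxcl2, with no UMI in either MMPlow library and 2.56 and 6.69 CPM in MMPhigh. Without MMPlow 2 or MMPhigh 2 the higher count was 3, with Cxcl10 lost in both, and Cxcl2 was not called without either MMPlow library. The Ccl4 call was lost in cells with at least 5000 UMIs.

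Other macrophage programmes moved in part. Of 20 macrophage genes outside the rule 11 rose and 0 fell (median 0.51), including the transcription factors Irf8, at 111, 126, 183 and 192 CPM (0.74), and Spi1 (0.51, not called without MMPlow 1), and the actin regulator Coro1a (0.88). Of 12 antigen presentation genes 3 rose, B2m (0.71), Cd86 (0.74) and H2-DMa (0.71, not called without either MMPlow library or without MMPhigh 1), and 1 fell, Cd40, which was at 27.1, 26.0, 2.40 and 2.12 CPM in non-macrophage cells against 6.14, 6.76, 0.945 and 0.259 CPM here. H2-Aa, an MHC class II chain, had no UMI in these cells. Interferon response genes had 0 higher and 2 lower of 21 (median -0.17), a lower share close to the 9.37% over all genes. Of the 9 fetal liver and Kupffer genes 4 fell and 1 rose, and Clec1b, at 33.0, 33.8, 9.04 and 9.70 CPM, fell by 1.74 on the log2 scale. Clec1b was at 92.3, 108, 18.1 and 12.3 CPM in non-macrophage cells, and 1 of the 4 lower genes was above the non-macrophage level in both MMPlow libraries. Of 10 megakaryocyte genes 6 were lower as well, with summed levels of 779, 1054, 642 and 670 CPM, and their part was not tested. Without MMPlow 2 the count of lower Kupffer genes was 2. The Kupffer lectin Clec4f was at or below 0.375 CPM in each library. Monocyte genes had 5 lower and 1 higher of 14, with Ccr2 not called at 28.4, 42.8, 26.9 and 29.6 CPM. For the cell cycle, 4 of 25 S-phase genes were lower and 4 of 25 G2/M genes higher, and no gene of either list was called in thinned cells. Without MMPhigh 1 or MMPlow 2 the S-phase count was 2.

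Mitochondrial transcripts were of interest because the fractions were sorted on membrane potential. The median share of a C1q-high macrophage's UMIs that came from the 13 mitochondrially encoded genes was 3.52, 3.46, 4.18 and 4.67%. The fractions did not overlap, with means of 3.49% ± 0.0420 (SD, n = 2) and 4.43% ± 0.347 (SD, n = 2), and an exact permutation test gave p = 0.333, the smallest possible. The direction turned with C1q at or above 10 per 10000, where the difference was -0.209 percentage points in place of 0.935. Among cells with at least 5000 UMIs the medians were 2.45, 2.64, 4.49 and 4.65%. Among cells below 5000 UMIs they were 4.96, 5.54, 3.79 and 5.71%, and the fractions overlapped. Of the 13 genes 4 were called higher (mt-Nd2, mt-Co2, mt-Co3 and mt-Atp6, log2 0.50 to 0.67) and 1 lower (mt-Nd6, which lies on the opposite strand, -0.84). The higher calls were lost without either MMPlow library and in thinned cells. Those of mt-Co2 and mt-Co3 were also lost with a replicate block.

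In other macrophages the median mitochondrial share was 5.63, 6.16, 3.12 and 3.80%, lower in MMPhigh (exact permutation p = 0.333), and that of non-macrophage cells was 3.94, 4.26, 3.08 and 3.31%. A test of the difference between the differences (edgeR, interaction of fraction and class) was run over 13596 genes, of which 1119 (8.23%) had a more positive and 2015 (14.8%) a more negative difference in C1q-high than in other macrophages. This excess of negative differences was reversed or smaller in some settings. The counts were 1742 more positive and 1496 more negative without MMPhigh 1, 1463 and 1260 with C1q at or above 10 per 10000, 859 and 826 with C1q at or above 40, and close to even, at 1576 and 1594, among genes with at least 10 CPM in 2 sums. All 13 mitochondrially encoded genes were among the former (median 0.57, against -0.10 over all genes). Their summed level was 37002, 36292, 45946 and 46771 CPM in C1q-high and 50924, 52500, 40200 and 38652 CPM in other macrophages. Without MMPlow 2 the count was 5 of 13.

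Most nuclear genes of the respiratory chain differed in the other direction. Of 49 OXPHOS subunit genes 43 had a more negative difference in C1q-high macrophages and 0 a more positive one (median -0.47). Their summed level was 14371, 14763, 14356 and 14850 CPM in C1q-high macrophages, nearly flat across libraries, and 12686, 13069, 16828 and 16158 CPM in other macrophages. Between the fractions, 7.83% of all genes tested in C1q-high macrophages were called higher, and the count for these subunits was near that share. Within C1q-high macrophages 4 of 49 were called higher in MMPhigh (2 without MMPlow 1) and 0 lower. The count of 43 was 10 without MMPlow 2, 24 without MMPlow 1, 27 without MMPhigh 1, and 11 in thinned cells or in cells with at least 5000 UMIs. Of 19 glycolysis genes 5 rose and 2 fell in MMPhigh within C1q-high macrophages, with Gapdh at 798, 942, 1518 and 1790 CPM (log2 1.01). Fewer were called higher without MMPlow 1 or without MMPhigh 2. The list's sum was 4331, 4848, 5721 and 6458 CPM in C1q-high and 3858, 4249, 5977 and 7008 CPM in other macrophages. Of these genes 1 had a more positive and 8 a more negative difference in C1q-high than in other macrophages.

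Genes for scavenging also differed between the classes in this respect. Of 20 efferocytosis genes 12 had a more positive difference between fractions in C1q-high than in other macrophages and 2 a more negative one (median 0.62), and the count was 7 without MMPlow 2. The list's sum was 2549, 2445, 1472 and 1816 CPM in other macrophages and 1439, 1397, 539 and 536 CPM in non-macrophage cells. The endothelial list's sum in other macrophages was 2062, 1932, 142 and 157 CPM, and its part was not tested. Mertk stood at 119, 117, 80.7 and 94.7 CPM in other macrophages, lower in MMPhigh, and the difference of differences was 0.87. Stab1 (0.81) and Abca1, a cholesterol exporter (0.94), also had a more positive difference, with Abca1 at 299, 264, 285 and 310 CPM in C1q-high macrophages and at 173, 158, 79.6 and 86.3 CPM in other macrophages. Stab1 lost this call with C1q at or above 40 per 10000 and with at least 5000 UMIs. Of the microglia list 4 of 15 had a more positive difference, 0 a more negative one and 11 were not called. The list's median was -0.07, against -0.10 over all genes. Among the 4 were P2ry12 (0.87), Csf3r (0.64) and Sparc (1.04). Csf3r lost this call with DESeq2, with at least 5000 UMIs, in thinned cells, without the highest Scrublet scores and without MMPlow 2. Sparc lost it without the highest Scrublet scores. Ccl24 went the other way (-1.59), from 19.3 and 17.9 to 30.4 and 36.7 CPM in other macrophages.

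C1q-high macrophages were not uniform. The macrophages of each library were placed in bins of C1q level, from just below the threshold (15 to 20 per 10000) to the highest, as a description without a test. Just outside and just inside the threshold (15 to 20 and 20 to 25 per 10000) Trem2 was at 161 and 213 CPM in MMPlow 1, 131 and 183 in MMPlow 2, 120 and 193 in MMPhigh 1 and 147 and 169 in MMPhigh 2. Apoe was there at 4695 and 5356, 3798 and 4078, 2870 and 3133, and 2616 and 3108 CPM, so the threshold cut a continuous range. Lysosome genes summed to 5604, 6223, 8410, 11858 and 16963 CPM over the 5 bins in MMPhigh 1, and to 5629, 6442, 8464, 12537 and 17366 CPM in MMPhigh 2. At 20 to 25 the MMPlow libraries stood at 6806 and 6362 CPM, and at 25 to 40 at 8654 and 7910 CPM. In both bins they overlapped the MMPhigh libraries. In the 40 to 80 bin they were lower, at 10305 and 10023 CPM.

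**Figure D5:**
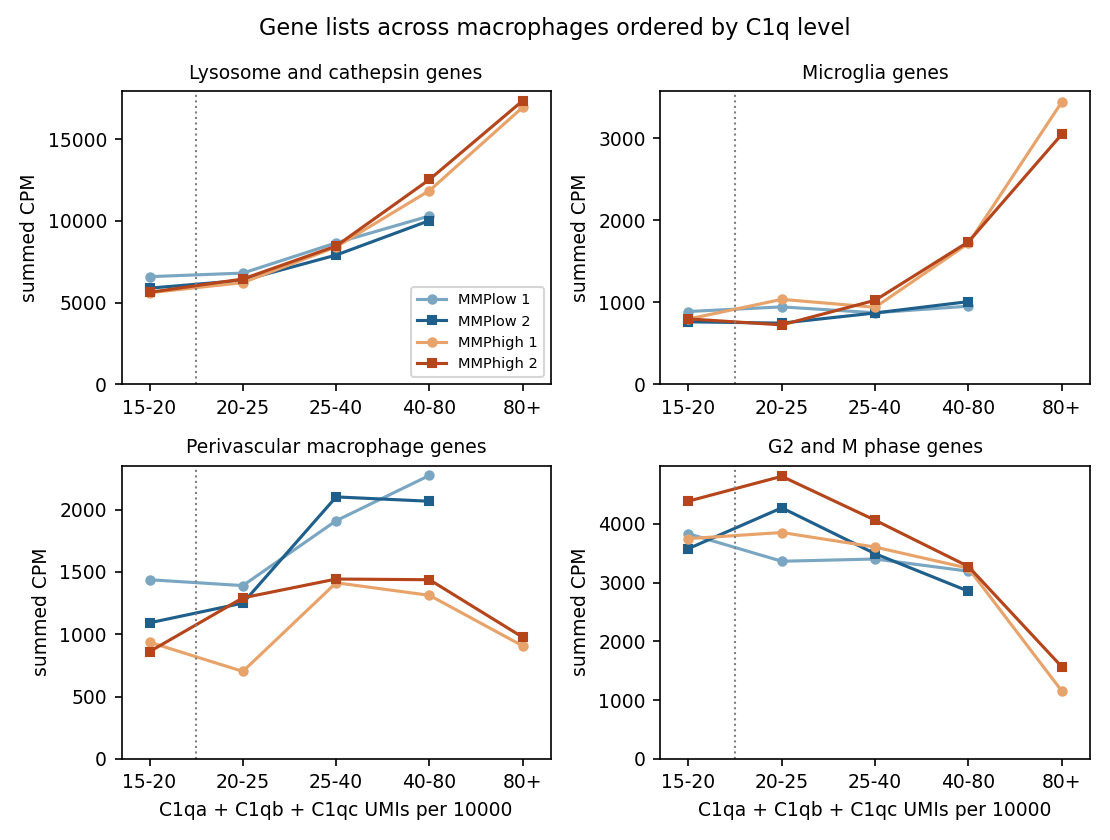
Summed CPM of lysosome, microglia, perivascular and G2/M genes in macrophages binned by C1q UMIs per 10000, 1 line per library; the dotted line marks the threshold of 20 and bins with fewer than 20 cells are not drawn. Microglia genes in the MMPhigh libraries lie near the MMPlow level at 25 to 40 and stand at 1718 and 1737 CPM at 40 to 80 and at 3440 and 3048 CPM from 80.

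The microglia genes of MMPhigh lay at the upper end of this range. Their sum was 871 and 869 CPM in the 25 to 40 bin of the MMPlow libraries and 939 and 1024 CPM in that of the MMPhigh libraries. In the 40 to 80 bin it was 952 and 1008 CPM in MMPlow but 1718 and 1737 CPM in MMPhigh. From 80 per 10000, where MMPhigh had 39 and 119 cells and MMPlow only 6 and 17, it was 3440 and 3048 CPM in MMPhigh. Sall1 there was at 51.7 and 34.1 CPM. Perivascular genes followed no single course over the bins. In MMPhigh they summed to 702 and 1292 CPM at 20 to 25, 1312 and 1437 CPM at 40 to 80 and 905 and 975 CPM in the top bin, and in MMPlow to 1390 and 1250 CPM at 20 to 25 and 2275 and 2067 CPM at 40 to 80. In the top bin of MMPhigh G2/M genes summed to 1155 and 1568 CPM against 3852 and 4809 CPM at 20 to 25. Neural genes summed to 987 CPM at 20 to 25 and 164 CPM in the top bin in MMPhigh 1, and to 784 and 153 CPM in MMPhigh 2. Depth moved with the bins and in opposite directions, with median UMIs of 2942 at 20 to 25 and 14369 in the top bin in MMPhigh 1 and of 34638 and 17077 in MMPhigh 2. Its part in the pattern was not tested.

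Across single cells, the summed levels of the microglia and perivascular lists had Spearman correlations of -0.13 (n = 292), -0.06 (n = 465), -0.21 (n = 766) and -0.51 (n = 769). These are descriptions, since the cells of a library share its depth and free RNA, and the microglia sum itself had correlations of -0.14, -0.20, 0.23 and -0.41 with the cell's UMIs. C1q correlated with the lysosome sum at 0.33, 0.48, 0.62 and 0.71 in the same cells, and with the perivascular sum at 0.18, 0.20, 0.12 and -0.01.

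Haemoglobin was rare in these cells. A haemoglobin share of at least 1% of UMIs was found in 1 of 2292 C1q-high macrophages (0.0436%, 95% exact binomial interval 0.00110 to 0.243%), a cell of MMPhigh 1 with 4.96% of 6690 UMIs. The next highest cells held 0.940 and 0.426%. Other macrophages reached 1% in 0, 5, 1 and 1 cells of the 4 libraries. A comparison of cells above and below 1% in gene expression or between fractions could therefore not be fitted.

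In the sums over all C1q-high macrophages, too, transcripts of the 8 α- and β-globin genes were scarce. Globin UMIs were at 127, 83.7, 79.0 and 34.5 CPM in C1q-high macrophages. They were at 196, 378, 391 and 213 CPM in other macrophages and at 1564, 1233, 2089 and 737 CPM in non-macrophage cells. In every library C1q-high macrophages were the lowest of the 3. Their MMPhigh 1 value includes the cell above 1%, with 4.96% of 6690 UMIs. The C1q-high macrophages of that library held 585 globin UMIs in all, so this 1 cell gave a large part of the value. Cells past the erythroid marker cut held 156794, 110015, 68981 and 18395 CPM. Of the globin UMIs of non-macrophage cells, 79150 of 92956, 86115 of 103703, 45455 of 60834 and 47034 of 60008 came from them. Endothelial cells stood at 426, 230, 31.2 and 57.0 CPM. In MMPhigh 1, where they held only 12 globin UMIs, this was below C1q-high macrophages with the cell above 1% included. With cells thinned to 2000 UMIs, 24, 17.2, 11.5 and 3.90% of C1q-high macrophages held a globin UMI, against 29.3, 25.8, 22.8 and 11.2% of non-macrophage cells, and the unthinned shares were 41.4, 37.4, 21.1 and 29.0%.

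Genes of the erythroblastic island, in which a central macrophage holds maturing red cells, showed no common direction between fractions, with 2 of 10 higher and 2 lower (median -0.37). Against other macrophages 6 of 11 were higher and 0 lower (median 0.67), and 2 of 7 when cells were thinned. Of 27 tested erythroid genes other than globins 10 were lower and 1 higher in MMPhigh (median -0.56), a lower count that was 3 without MMPlow 2, 6 without MMPlow 1, and 4 without MMPhigh 1 or with DESeq2. The excess of lower genes was absent with C1q at or above 10 per 10000, where 5 of 32 were higher and 3 lower (median 0.16). Over all genes of that fit 1458 of 13633 were higher and 1562 lower, so both list counts were near the share over all genes. Their summed level was 690, 696, 597 and 574 CPM.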

How the data were processed

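The deposited matrices hold whole-number UMI counts per gene and barcode, with no normalization by the authors. Per the file headers they came from Cell Ranger 7.0.1, while the submitters' processing notes list Cell Ranger 2.1.1 and the build mm10. Counting parameters and the annotation were not given in the sources used here. The 4 libraries shared 32285 features.

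Cells were filtered and classed by the rule in the report, and UMIs of each class were summed per library, the library being the replicate. Sums were tested with edgeR 4.0.16 (TMM, filterByExpr, robust quasi-likelihood, Benjamini-Hochberg at 0.05 over all genes tested) in R 4.3.3. CPM values are such counts scaled to a total of 1000000 per sum. DESeq2 1.42.0 and Scrublet scores (scanpy 1.11.5, Python 3.11.15; the highest 6% per library removed) served as alternatives, and the fits were checked on simulated data. Doublets were otherwise kept. Thinning drew 2000 UMIs per cell. For tests and C1q-high shares the rule was applied again to the thinned counts. Shares of cells with a detected gene or a globin UMI kept the cells chosen before thinning.

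Named genes were the 10 per direction with the largest log2 change among those called, at 50 CPM or more on average in the higher group, with complete separation of libraries (5 for the interaction, without separation). Gene models without a name were not named. A few genes that the rule or a list would name are not reported here, and counts over genes include them. Members of the 30 gene lists are named where their list is described. Of the list symbols, 5 were absent from the files. The cells, the lists and the tests were chosen with earlier results of these data known. Same-numbered libraries of the 2 fractions had a residual correlation of 0.088 over 12653 genes and the labels do not pair them, so no replicate block was used.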

Additional observations from a re-analysis of the deposited data

Results flagged for a closer look

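The following values came from the test of whether the difference between fractions differed between C1q-high and other macrophages (edgeR interaction, log2 scale, C1q-high minus other). In all, 3134 genes passed an adjusted p of 0.05 in this test.

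Among genes with a more positive difference in C1q-high macrophages, Stab2, a scavenger receptor of sinusoidal endothelium, stood at 3.36, at 23.0, 9.76, 0.675 and 0.415 CPM in C1q-high and 62.0, 72.7, 0 and 0.280 CPM in other macrophages, so that the value depends on the prior count. Col15a1, a basement membrane collagen, stood at 2.31, at 29.2, 29.3, 8.64 and 10.6 CPM in C1q-high and 62.9, 51.5, 3.23 and 3.63 CPM in other macrophages. The endothelial genes Thsd1 and Cdh5 stood at 1.93 and 1.63. Stab2 lost its call with DESeq2, without the highest Scrublet scores and without cells past the marker cut of another class, among other settings. Thsd1 and Cdh5 lost theirs in thinned cells. These 4 genes were lower in MMPhigh in both classes, with log2 changes in C1q-high macrophages of -4.81 for Stab2, -1.49 for Col15a1, -2.44 for Thsd1 and -4.91 for Cdh5, and fell less there than in other macrophages. The value for Pmepa1 was 1.88, at 12.3, 21.0, 55.2 and 60.3 CPM in C1q-high and 21.7, 16.2, 11.2 and 17.2 CPM in other macrophages.

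Among genes with a more negative difference, S100a8 stood at -7.30, with 113, 121, 0.863 and 115 CPM in other macrophages, and lost its call without MMPhigh 2. Adgrf5, with no UMI in the C1q-high macrophages of MMPhigh, stood at -4.94, a value that depends on the prior count. The endothelial genes Cldn5 and Emcn stood at -3.84 and -3.13. Both lost their calls in thinned cells and without cells past the marker cut of another class. Emcn also lost its call without the highest Scrublet scores, and Cldn5 with C1q at or above 10 per 10000. The globin gene Hbb-bs stood at -2.90, at 8.45, 3, 6.07 and 2.28 CPM in C1q-high and 14.2, 16.1, 142 and 43.8 CPM in other macrophages. Cdh5 lost its call without MMPhigh 2. S100a8 also lost its call with DESeq2 and in thinned cells. Adgrf5 and Hbb-bs lost theirs in thinned cells, with at least 5000 UMIs and with C1q at or above 10 per 10000.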

How the results depend on the processing

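The count of genes between the fractions (2177) was 1282 with DESeq2, 1241 with C1q at or above 40 per 10000, 617 in thinned cells, 1275 without the highest 6% of Scrublet scores and 1433 to 1964 with 1 library left out. The count between classes (4333) was 1773 in thinned cells, 2528 without cells past the marker cut of another class, an alternative chosen after seeing the data, and 2730 to 4260 with 1 library left out, lowest without MMPhigh 2. The count for the difference between classes (3134) was 1210 with DESeq2, 1685 at C1q 40, 956 in cells with at least 5000 UMIs, 558 in thinned cells, 1969 without the highest Scrublet scores and 1188 to 3618 with 1 library left out, being 1188 without MMPlow 2 and 1749 without MMPlow 1. With a replicate block the count between fractions was 2265, and 85 of 87 named called genes kept their call, with mt-Co2 and mt-Co3 the exceptions. In thinned cells 54 of 84 kept it, with C1q at or above 40 per 10000 72 of 84, and with at least 5000 UMIs 77 of 87. Some were also lost without either MMPlow library. Of the named calls of the interaction, 7 of 16 were kept in thinned cells, and of those between classes 41 of 45. The differences of shares kept their direction with 1 library left out, at 15.3 to 19.998 percentage points of retained cells and 29.8 to 54.0 of macrophages. With C1q at or above 40 per 10000 they were 10.2 and 27.1 points, and with C1q at or above 10 they were 23.0 and 48.1 points. The difference in the median mitochondrial share (0.935 percentage points) was 0.689 to 1.18 with 1 library left out and -0.209 with C1q at or above 10 per 10000. The difference in the share of cells at 1% haemoglobin (0.0653 percentage points, from 1 cell) was 0 to 0.131 with 1 library left out, -0.0823 at C1q 10 and -0.0338 in thinned cells. The fits over haemoglobin strata could not be made, and their alternatives and a fit of cells at or above 1% haemoglobin alone were not run. Of the named genes between fractions, Folr2, Ccl24 and Pf4 lost their calls most often. Thinned cells hold fewer UMIs and fewer tested genes by construction.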

Other observations

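Gene groups not described above separated C1q-high from other macrophages in part. Of 20 genes for Trem2 signalling and lipid handling 13 were higher and 1 lower in C1q-high macrophages (edgeR, median log2 difference 1.00). Of 12 antigen presentation genes 8 were higher and 0 lower (median 0.76). Of 22 interferon response genes 11 were higher and 1 lower (median 0.69), a count that was 17 without MMPhigh 1, 6 without MMPhigh 2 and 7 without MMPlow 2. Of 25 immediate early and heat shock genes 10 were higher and 1 lower, against 6 higher without MMPhigh 1 and 5 without MMPhigh 2. Over the 4 libraries together few energy genes were called, with 2 of 49 OXPHOS subunits higher and 1 of 13 mitochondrially encoded genes lower. These counts average over fractions that differed in opposite directions. The mitochondrially encoded sum was lower in C1q-high than in other macrophages in MMPlow and higher in MMPhigh, and the OXPHOS sum the reverse. Of 19 glycolysis genes 1 was higher and 3 lower, neither a larger share than the 14.1% higher and 17.8% lower over all genes. No direction is read from such small counts. Their order changed with DESeq2 or in thinned cells (2 and 1 in each), with C1q at or above 10 per 10000 (3 and 2), and without MMPhigh 1. The OXPHOS count was 7 without MMPhigh 1. In the cell cycle 4 of 25 S-phase and 2 of 25 G2/M genes were lower, no larger a share than the 17.8% over all genes, and the S-phase count was 0 without either MMPhigh library.

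Of the lists of other cells, the genes lower in C1q-high macrophages were 9 of 13 megakaryocyte genes, 6 of 10 granulocyte and mast cell genes, 11 of 13 mesenchymal genes, 7 of 8 epithelial and mesonephric genes, 5 of 7 muscle genes and 3 of 3 germ cell genes. Without MMPhigh 2 the mesenchymal count was 7, the epithelial 3, the muscle 0 and the germ cell 0, and without MMPhigh 1 the granulocyte count was 3 and the mesenchymal 6. Between the fractions, 7 of 8 granulocyte and mast cell genes, 6 of 12 progenitor genes, 6 of 10 megakaryocyte genes and 1 of 10 mesenchymal genes were lower in MMPhigh, and 4 of 6 muscle genes and 3 of 7 epithelial genes were higher. Over all genes tested 7.83% were higher and 9.37% lower, so the mesenchymal count was near the share over all genes. The megakaryocyte count was 3 without either MMPhigh library and 2 without MMPlow 2. The single germ cell gene tested was not called. The part of transcripts from such cells in these counts was not tested.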
